A study of Mus musculus with 22 samples.

Results

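The 9 genes described here code for small leucine-rich proteoglycans and were taken from a table of read counts by their Ensembl identifiers, which matched the mouse symbols Dcn, Lum, Bgn, Fmod, Ogn, Aspn, Prelp, Podn and Omd. They are 9 of the 55414 genes in the table. All 9 had enough counts to be tested, and 17554 genes were tested in all. RNA came from fibroblasts sorted out of mouse skin after back surgery. EXP mice received a hydrogel expander beneath the skin, which stretches it, and CTRL mice had the same operation with no expander. Skin was taken on day 1 (4 CTRL libraries, 5 EXP libraries), day 2 (3 of each arm) or day 4 (4 CTRL libraries, 3 EXP libraries). The sort removed cells with CD31, CD45, CD117 or EpCAM on their surface and kept live cells with both CD34 and PDGFRα, so the CTRL arm shares the wound and the sort with the EXP arm. Strain, sex and age are not given in the sources used here. The labels name EXP and CTRL mice but do not say that each library is 1 mouse, so p-values measure the spread between libraries.

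Small leucine-rich proteoglycans are secreted proteins built around a curved stack of leucine-rich repeats, and most of them carry chondroitin, dermatan or keratan sulfate chains. They bind collagen fibrils and set their diameter and spacing, and several hold growth factors of the TGF-β family in the matrix. In skin they are made mainly by dermal fibroblasts, and loss of decorin leaves skin fragile with uneven collagen fibrils. By sequence, Dcn, Bgn and Aspn form class I, Lum, Fmod, Prelp and Omd class II, Ogn belongs to class III, and Podn is set apart from these classes.

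Libraries held 21461294 to 30210204 counts. No library had 3 or fewer counts of any of the 9 genes, and 3 counts correspond to 0.0805 to 0.157 CPM (read counts scaled to a common library size, here on library totals scaled by the trimmed mean of M-values, TMM). Pdgfra was at 227.2 to 1022 CPM and Cd34 at 216.4 to 2346 CPM over all libraries, while Pecam1 (CD31) reached at most 3.68, Ptprc (CD45) 0.243, Kit (CD117) 0.698 and Epcam 2.09 CPM. Of the sorting genes, Cd34 was lower in EXP on day 1 (log2 fold change -1.74, adjusted p 0.000810) and day 2 (-2.07, adjusted p 0.00379), and Pdgfra was higher on each day (0.84, 1.71 and 0.79, adjusted p 0.0154, 0.00134 and 0.0456), the day 4 call being lost without any one of the 4 CTRL libraries or EXP library 1. The 22 libraries also fell into 7 and 15 by the mean level of 192 genes that follow Rnf10 within groups. The 7 on the high side were day 1 CTRL libraries 1, 2 and 3, day 1 EXP libraries 1 and 2, and day 4 CTRL libraries 3 and 4. In bulk RNA from sorted cells, fewer cells of a type and less RNA per cell cannot be told apart.

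Dcn and Lum were the most abundant of the 9. Over all libraries Dcn averaged 13360 CPM, rank 5 of all genes, Lum 5399 CPM, rank 10, and Bgn 2055 CPM, rank 39. Per kilobase of exon, which allows levels of different genes to be compared, Dcn averaged 2288 CPM and Lum 2206 CPM. Bgn (336.9), Prelp (284.8) and Aspn (275.8 CPM per kilobase) formed a middle tier, followed by Podn (89.8), Fmod (54.1), Ogn (38.0) and Omd (7.10 CPM per kilobase). The spread between libraries differed as widely. The highest library exceeded the lowest 2.99-fold for Bgn, 4.14-fold for Dcn, 9.59-fold for Aspn, 9.89-fold for Lum and 10.03-fold for Podn, but 46.5-fold for Ogn, 62.1-fold for Fmod and 67.6-fold for Omd.

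**Figure D1:**
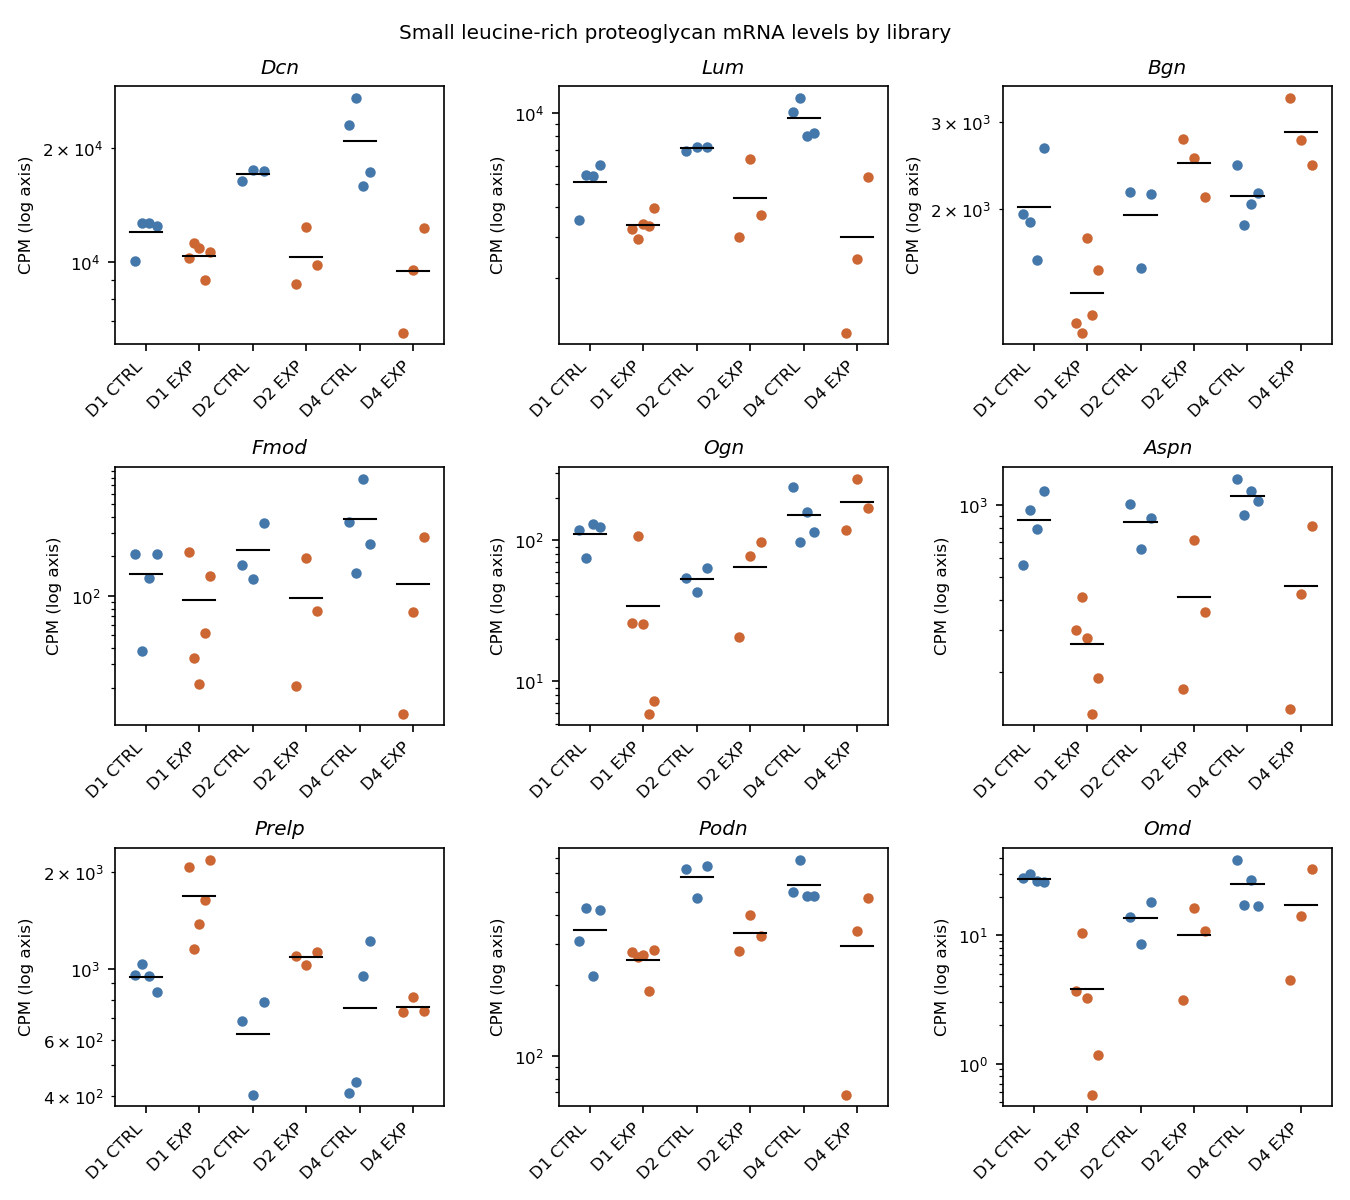
CPM of each of the 9 genes (log axis) in every library, by day (D1, D2, D4) and arm (CTRL blue, EXP orange), with a black line at each group mean. Dcn and Lum were lower in all 3 day 4 EXP libraries than in any day 4 CTRL library, while Bgn was highest in a day 4 EXP library at 3360 CPM.

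Together the 9 genes took 2.11 ± 0.238% of the counts (mean ± SD, here and below) of the 4 day 1 CTRL libraries and 1.95 ± 0.138% of the 5 day 1 EXP libraries. The share was 2.38 ± 0.121% over 3 CTRL and 2.20 ± 0.286% over 3 EXP libraries on day 2. It reached 3.07 ± 0.632% over the 4 CTRL libraries of day 4, against 1.80 ± 0.265% over the 3 EXP libraries, and only on day 4 did no EXP library reach the range of the CTRL libraries. The gaps were wider on TMM-scaled totals than on library totals. The summed CPM of the CTRL libraries was 28460 ± 827 on day 2 (n = 3) and 35390 ± 6329 on day 4 (n = 4). That of the EXP libraries was 19180 ± 4024 on day 2 and 17170 ± 5277 on day 4 (n = 3 each).

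The makeup of the sum shifted while the share of Dcn stayed between 54.1% and 60.0% in group means. Among day 4 libraries Bgn made up 6.16 ± 1.25% of the 9-gene counts with CTRL treatment (n = 4) and 18.3 ± 8.56% with EXP (n = 3). Lum went the other way on that day, with 26.9 ± 0.369% against 16.0 ± 7.16%. Among day 1 libraries Prelp made up 4.45 ± 0.764% with CTRL treatment (n = 4) and 9.63 ± 2.35% with EXP (n = 5). In none of these comparisons did EXP and CTRL libraries overlap.

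**Figure D2:**
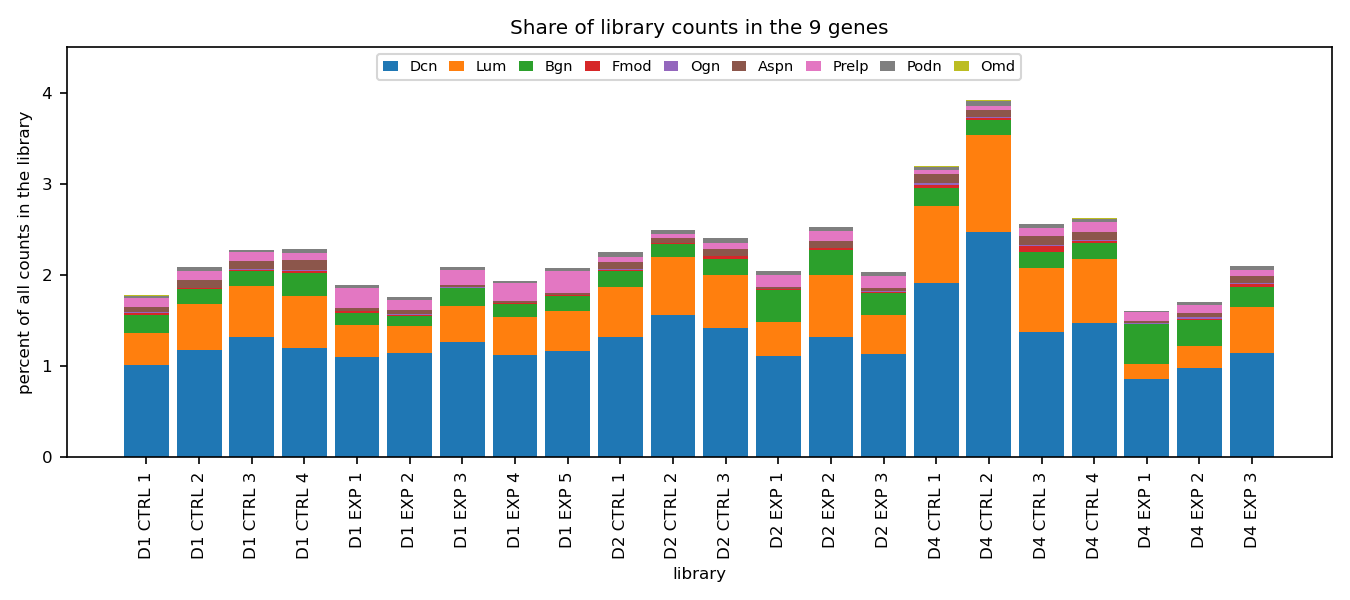
Percent of all counts of each library taken by each of the 9 genes, stacked, 1 bar per library. The tallest bars are those of day 4 CTRL libraries, up to 3.92%, and the bar of day 4 EXP library 1 is the lowest at 1.60%, with the widest Bgn segment.

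Whether the expander changed these mRNAs was tested on each day in a fit of all tested genes (edgeR quasi-likelihood, Benjamini-Hochberg adjusted p under 0.05). On day 1, 5 of the 9 differed, Prelp higher and Bgn, Aspn, Omd and Ogn lower in EXP, where 13.9% of all tested genes were called higher and 14.7% lower. On day 2, 1 of the 9 differed, Dcn, which was lower, against 5.71% of all genes called lower and 7.72% called higher. On day 4, 2 of the 9, Dcn and Lum, were lower, against 9.66% of all genes called lower, and none was higher, against 12.8% called higher. The median log2 fold change of the 9 was -0.60, -0.70 and -0.87 on days 1, 2 and 4, and that of all tested genes was 0.02, 0.02 and 0.03. With library totals in place of TMM the median of all genes moved to 0.21, 0.49 and 0.36 and that of the 9 to -0.40, -0.26 and -0.68.

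**Figure D3:**
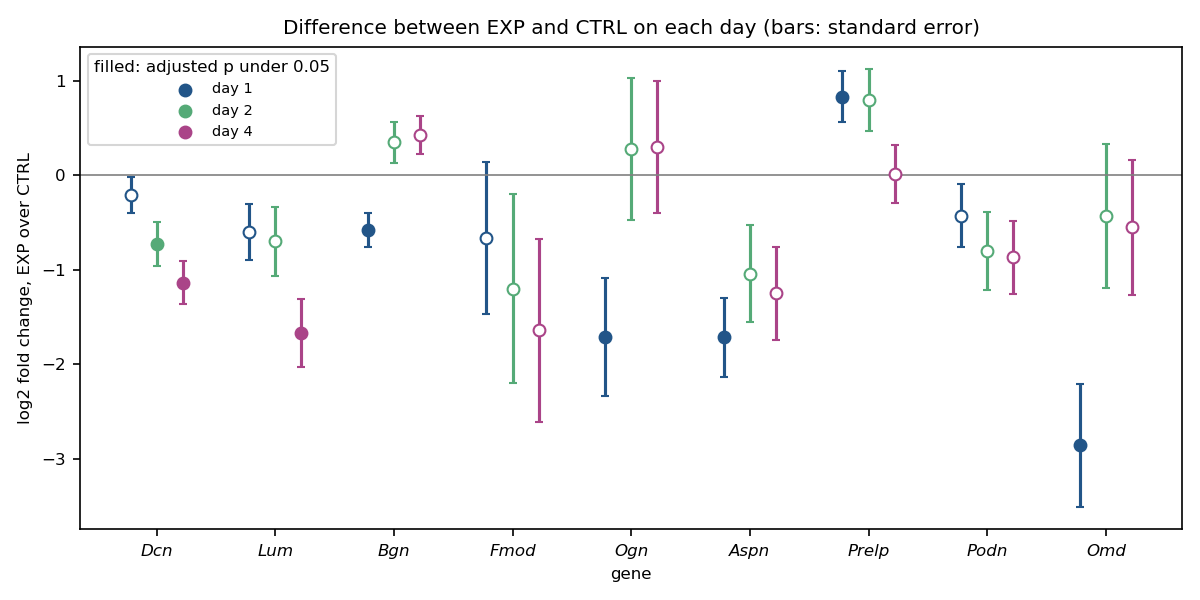
Log2 fold change of EXP over CTRL (vertical axis, bars are the standard error) of each of the 9 genes on days 1, 2 and 4, with filled points where the adjusted p was under 0.05. Filled points lie below 0 for Bgn, Ogn, Aspn and Omd on day 1, for Dcn on days 2 and 4 and for Lum on day 4, and above 0 for Prelp on day 1.

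Decorin (Dcn, ENSMUSG00000019929, chromosome 10) carries a chondroitin or dermatan sulfate chain, binds collagen I fibrils and holds TGF-β. Day 1 CTRL libraries were at 10110, 12710, 12670 and 12480 CPM, and day 1 EXP libraries at 10250, 11240, 10940, 8994 and 10640 CPM. The ranges overlapped, and at -0.20 on the log2 scale (SE 0.19, adjusted p 0.453) Dcn was not called. On day 2 CTRL stood at 16380, 17500 and 17340 CPM and EXP at 8770, 12390 and 9831 CPM. Every day 2 EXP library was below every CTRL library, and Dcn was lower at -0.72 on the log2 scale (SE 0.23, adjusted p 0.0426). On day 4 CTRL stood at 22920, 27080, 15880 and 17290 CPM and EXP at 6536, 9570 and 12330 CPM, again without overlap, and the log2 fold change was -1.13 (SE 0.22, adjusted p 0.00216).

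The order of the Dcn group means ran from day 4 EXP (9477 CPM) over day 2 EXP (10330), day 1 EXP (10410), day 1 CTRL (11990) and day 2 CTRL (17070) to day 4 CTRL (20800 CPM). Of the 5 steps between neighbours in that order, only the step from day 1 CTRL to day 2 CTRL was larger than the sum of the SDs. The EXP means lay close together and the CTRL mean was higher on each later day, but edgeR called no change over days within an arm (CTRL adjusted p 0.143, EXP adjusted p 0.891). For CTRL the change passed with DESeq2 (adjusted p 0.0140) and voom (0.0162). The EXP effect on day 4 was lower than that on day 1 by 0.93 on the log2 scale (SE 0.29, adjusted p 0.0395), where 5.18% of all genes were called lower, while the joint test over the 3 days did not pass in edgeR (adjusted p 0.100). The day 4 minus day 1 call was lost without any one of day 1 CTRL libraries 1 to 4, day 1 EXP libraries 3 and 5, day 4 CTRL libraries 1 and 2 or day 4 EXP libraries 1 and 2 (adjusted p up to 0.110). It was also lost with a replicate block (adjusted p 0.121). The day 2 call was lost on leaving out any one of CTRL libraries 1, 2 and 3 and EXP libraries 1 and 3 (adjusted p 0.0805 to 0.194), and with library totals in place of TMM (-0.27, adjusted p 0.340).

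Biglycan (Bgn, ENSMUSG00000031375, chromosome X), the closest relative of decorin, can also act on Toll-like receptors once released from the matrix. It was at 1954, 1886, 1577 and 2660 CPM in CTRL and 1178, 1125, 1747, 1222 and 1503 CPM in EXP on day 1. EXP library 3 overlapped the CTRL range, and Bgn was lower at -0.58 on the log2 scale (SE 0.18, adjusted p 0.0202). CTRL libraries of day 2 stood at 2167, 1520 and 2149 CPM and EXP at 2772, 2534 and 2120 CPM, a difference of 0.35 (SE 0.22, adjusted p 0.319). CTRL libraries of day 4 stood at 2452, 1858, 2047 and 2155 CPM and EXP at 3360, 2762 and 2452 CPM, a difference of 0.43 (SE 0.20, adjusted p 0.138). The sign on days 2 and 4 was the opposite of that on day 1, although neither later difference passed.

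In the joint edgeR test the EXP effect differed between days for Bgn (adjusted p 0.0316) and for none of the other 8 genes, where 8.82% of all tested genes were called. DESeq2 also called Dcn (adjusted p 0.0309), voom also Dcn, Lum, Ogn and Omd (0.0163 to 0.0428), and with a replicate block Bgn was not called (0.126). The effect on day 4 exceeded that on day 1 by 1.00 (SE 0.27, adjusted p 0.0203), where 8.16% of all genes were called higher. With a replicate block this difference did not pass either (adjusted p 0.0850). The joint call was lost without any one of day 1 CTRL libraries 1 and 4, day 1 EXP libraries 1 and 4, day 2 CTRL library 2, day 2 EXP libraries 1 and 2, day 4 CTRL library 2 or day 4 EXP library 2 (adjusted p 0.0501 to 0.0849), and the day 4 minus day 1 call without day 4 EXP library 1 (adjusted p 0.0616). Within EXP the mean was 1355 ± 263.5 CPM over 5 libraries on day 1, 2475 ± 329.7 over 3 on day 2 and 2858 ± 461.5 CPM over 3 on day 4. That change over days passed (adjusted p 0.00147, 14.3% of all genes called) and remained past the threshold in all 11 fits that each left out an EXP library. The level was higher on day 2 than on day 1 (0.87, SE 0.19, adjusted p 0.0165, 2.27% of all genes called higher). That step did not pass without day 1 EXP library 1 or day 2 EXP library 1 or 2 (adjusted p up to 0.0987). It was also lost with a replicate block (adjusted p 0.0782). The 3 CTRL means of 2019, 1945 and 2128 CPM did not differ past the threshold (adjusted p 0.929, 0.291% of all genes called). Within an arm, day and the processing of that day's libraries cannot be told apart. The day 1 call was lost without CTRL library 4 (-0.41, adjusted p 0.102), EXP library 1 (-0.50, adjusted p 0.0623) or EXP library 4 (-0.52, adjusted p 0.0555). With library totals the day 1 call was lost (-0.37, adjusted p 0.167) and Bgn was called higher on day 2 (0.83, adjusted p 0.0161) and day 4 (0.79, adjusted p 0.0125).

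Asporin (Aspn, ENSMUSG00000021388, chromosome 13) is a class I member that carries a run of aspartate residues and binds collagen. Day 1 CTRL libraries were at 559.6, 953.2, 790.2 and 1141 CPM, and EXP libraries at 298.7, 412.8, 278.2, 133.9 and 188.1 CPM. All 5 EXP libraries lay below all 4 CTRL libraries, and the log2 fold change was -1.72 (SE 0.42, adjusted p 0.00482). This call was kept in all 9 fits that each left out a library (-1.94 to -1.54). On day 2 CTRL stood at 1012, 652.8 and 881.7 CPM and EXP at 169.2, 712.9 and 354.9 CPM (-1.04, SE 0.51, adjusted p 0.193). On day 4 CTRL stood at 1285, 902.7, 1145 and 1033 CPM and EXP at 139.5, 425.6 and 811.5 CPM (-1.25, SE 0.49, adjusted p 0.0726). The day 4 libraries of the arms did not overlap, yet the EXP values spread 5.82-fold and the difference did not pass. Without day 2 EXP library 2 the day 2 difference passed (-1.70, adjusted p 0.0499), and without day 4 EXP library 3 the day 4 difference did (-1.92, adjusted p 0.0128). The EXP effect on Aspn did not differ between days past the threshold (adjusted p 0.745).

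Lumican (Lum, ENSMUSG00000036446, chromosome 10), a class II member that regulates fibril spacing and stands next to Dcn on the chromosome, was at 3531, 5479, 5416 and 6023 CPM in CTRL and 3239, 2932, 3405, 3319 and 3979 CPM in EXP on day 1. CTRL library 1 fell inside the EXP range, and at -0.60 (SE 0.30, adjusted p 0.137) Lum was not called on that day. On day 2 CTRL libraries were close together at 6954, 7174 and 7166 CPM and EXP libraries far apart at 3003, 6391 and 3716 CPM (-0.70, SE 0.37, adjusted p 0.218). CTRL libraries of day 4 stood at 10140, 11640, 8039 and 8262 CPM and EXP at 1177, 2411 and 5387 CPM. Lum was lower on that day in every EXP library, at -1.67 on the log2 scale (SE 0.36, adjusted p 0.00349).

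The order of the Lum group means was day 4 EXP (2992 CPM), day 1 EXP (3375), day 2 EXP (4370), day 1 CTRL (5112), day 2 CTRL (7098) and day 4 CTRL (9520 CPM). The steps from day 1 CTRL to day 2 CTRL and from there to day 4 CTRL were larger than the sum of the SDs, and the other 3 steps were not. Neither the change within CTRL (adjusted p 0.315) nor the difference of the EXP effect between days (adjusted p 0.230) passed. The day 4 calls of Dcn and Lum remained in each of the 7 fits that left out a day 4 library, where Lum ran from -2.38 to -1.29 and Dcn from -1.35 to -0.92. Both calls were lost in a fit of the day 4 libraries alone (adjusted p 0.0701 for Dcn and 0.0660 for Lum).

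Fibromodulin (Fmod, ENSMUSG00000041559, chromosome 1), a keratan sulfate proteoglycan that shares collagen binding sites with lumican, passed on no day. CTRL libraries were at 207.3, 38.1, 137.2 and 208.8 CPM on day 1, 173.7, 135.7 and 357.7 CPM on day 2, and 364.1, 150.7, 784.1 and 249.1 CPM on day 4. EXP libraries were at 218, 33.8, 21.3, 51.8 and 142.5 CPM on day 1, 20.5, 193.8 and 76.5 CPM on day 2, and 12.6, 75.9 and 283.8 CPM on day 4. The arms overlapped on every day, and the spread inside single groups reached 22.5-fold on day 4 in EXP. The log2 fold change was -0.66, -1.20 and -1.64 on days 1, 2 and 4 with SEs of 0.81, 1.00 and 0.97 (adjusted p 0.574, 0.466 and 0.232), and these standard errors were larger than those of the other 8 genes on the same days.

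Prolargin (Prelp, ENSMUSG00000041577, chromosome 1) has a basic amino terminus that binds heparan sulfate and anchors basement membranes to collagen, and its gene lies beside Fmod. It was at 956.9, 1034, 945.6 and 844.5 CPM in CTRL and 2072, 1148, 1378, 1640 and 2185 CPM in EXP on day 1. All EXP libraries were above all CTRL libraries, and Prelp was the only member called higher on that day (0.83, SE 0.27, adjusted p 0.0269). CTRL libraries of day 2 stood at 685.5, 404.9 and 786.7 CPM and EXP at 1098, 1028 and 1131 CPM, again without overlap, but Prelp missed the threshold at 0.80 (SE 0.33, adjusted p 0.117). On day 4 CTRL stood at 411, 442.1, 948.5 and 1221 CPM and EXP at 734.4, 813.6 and 737.8 CPM, a difference of 0.01 (SE 0.31, adjusted p 0.983).

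The day 4 EXP libraries sat inside a gap of the CTRL libraries. CTRL libraries 1 and 2, with low levels of the 192 genes as had all EXP libraries of that day, were at 411 and 442.1 CPM, and CTRL libraries 3 and 4, with high levels of them, at 948.5 and 1221 CPM. The part of the split in the day 4 result was not tested. Within EXP, Prelp changed over the days (adjusted p 0.0312), from 1685 ± 442.8 CPM (n = 5) over 1086 ± 52.3 (n = 3) to 761.9 ± 44.8 CPM (n = 3). Without EXP library 1 or 5 of day 1, or 1 or 2 of day 4, that change did not pass (adjusted p 0.0630 to 0.0818). It was also lost with the library split as a covariate (adjusted p 0.0651), a replicate block (0.151), limma voom (0.0554) or no filter on low counts (0.0523). The day 1 call was lost without CTRL library 1, 3 or 4 or EXP library 1 or 5 (adjusted p 0.0504 to 0.0681, log2 fold change 0.72 to 0.84). An antisense gene, Gm15851, overlaps 9.7% of the Prelp exons, and strand use in the counting is not given in the sources used here, so a share of these counts is uncertain.

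Osteomodulin (Omd, ENSMUSG00000048368, chromosome 13) is a sulfated class II member best known from bone, and it was the least abundant of the 9. Day 1 CTRL libraries were tightly grouped at 27.9, 30.1, 26.5 and 25.9 CPM, and EXP libraries lay at 3.67, 10.50, 3.23, 0.573 and 1.17 CPM. This was the largest difference among the 9 genes on any day, at -2.86 on the log2 scale (SE 0.65, adjusted p 0.00307), kept in all 9 fits that each left out a library (-3.68 to -2.57). The lowest EXP value, in library 4, rests on 18 counts. On day 2 CTRL stood at 14.0, 8.56 and 18.1 CPM and EXP at 3.13, 16.3 and 10.8 CPM (-0.43, adjusted p 0.763). CTRL libraries of day 4 stood at 38.7, 17.2, 27.2 and 16.9 CPM and EXP at 4.48, 14.0 and 32.7 CPM (-0.55, adjusted p 0.615). The arms overlapped on both later days, and the joint test of a difference between days did not pass (adjusted p 0.151).

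Osteoglycin or mimecan (Ogn, ENSMUSG00000021390, chromosome 13), the class III member, was at 118.2, 75.6, 130.1 and 123.7 CPM in CTRL and 25.9, 106.8, 25.4, 5.89 and 7.25 CPM in EXP on day 1. EXP library 2 stood inside the CTRL range and the other EXP libraries below it, and Ogn was lower at -1.71 on the log2 scale (SE 0.62, adjusted p 0.0456). This call stood close to the threshold. Leaving out 1 library at a time removed it in 8 of 9 fits (adjusted p 0.0509 to 0.0931), and without EXP library 2 the fold change was -2.80 (adjusted p 0.000695). CTRL libraries of day 2 stood at 53.8, 42.8 and 63.4 CPM and EXP at 20.6, 76.9 and 97.1 CPM (0.28, adjusted p 0.848). On day 4 CTRL stood at 237.5, 97.6, 159.6 and 115.6 CPM and EXP at 119.4, 273.9 and 169.0 CPM (0.30, adjusted p 0.796). Within EXP the level changed over the days (adjusted p 0.0387), with means of 34.2, 64.9 and 187.4 CPM on days 1, 2 and 4. That change was lost in 6 of 11 fits with 1 EXP library removed, namely without library 1, 3 or 5 of day 1 and without library 1, 2 or 3 of day 4 (adjusted p 0.0554 to 0.187).

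Podocan (Podn, ENSMUSG00000028600, chromosome 4) is a collagen-binding member first described in kidney. CTRL libraries were at 309.2, 428.7, 219.6 and 420.4 CPM on day 1, 626.1, 472.4 and 646.6 CPM on day 2, and 498.8, 685.7, 480.6 and 479 CPM on day 4. EXP libraries were at 276.8, 263.3, 269.4, 189.9 and 282 CPM on day 1, 278.9, 397.7 and 324.9 CPM on day 2, and 68.3, 340.4 and 472.6 CPM on day 4. On days 2 and 4 all EXP libraries were below all CTRL libraries, by a narrow margin on day 4 (472.6 against 479 CPM). Podn was not called on any day, at -0.43, -0.80 and -0.87 with SEs of 0.33, 0.41 and 0.39 (adjusted p 0.360, 0.208 and 0.112). Without day 4 EXP library 3 the day 4 difference did (-1.36, adjusted p 0.0213).

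For the other genes of the 9 the group means came in these orders. Bgn, Aspn, Omd, Ogn, Fmod and Podn were all lowest in day 1 EXP, and no step between neighbouring groups exceeded the sum of the SDs. Their highest group was day 4 EXP for Bgn and Ogn, day 4 CTRL for Fmod and Aspn, day 2 CTRL for Podn and day 1 CTRL for Omd. Prelp ran the other way, from day 2 CTRL (625.7 CPM) over day 4 CTRL (755.7), day 4 EXP (761.9), day 1 CTRL (945.3) and day 2 EXP (1086) to day 1 EXP (1685 CPM), and the last 3 of its 5 steps exceeded the sum of the SDs.

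By libraries that did not overlap, 1 gene of the 9 was higher and 2 were lower in EXP on day 1, where 11.7% and 12.2% of all tested genes were so. On day 2 the counts were 1 higher and 3 lower, against 20.9% and 18.4% of all genes, and on day 4 none higher and 4 lower, against 13.8% and 11.8%. The 4 lower on day 4 were Dcn, Lum, Aspn and Podn. Day 4 EXP library 1 was the lowest of all 22 libraries for Dcn, Lum, Fmod and Podn and the highest for Bgn, and EXP library 3 was the EXP library nearest to CTRL for Dcn, Lum, Fmod, Aspn, Podn and Omd.

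Markers of other cell types moved in some of the same libraries. The summed level of 7 endothelial markers was 4.15 to 10.97 CPM in CTRL and 23.9 to 56.2 CPM in EXP on day 4, and that of 6 adipocyte markers 2.18 to 6.28 CPM and 3.08 to 165.5 CPM. Of the endothelial markers, Kdr (3.11) and Emcn (5.09) were called higher on day 4. Pecam1, Tek, Vwf and Cldn5 were not called on that day, and Cdh5 had too few counts to be tested. Of the adipocyte markers, Adipoq (7.16), Plin1 (9.15), Cidec (8.68) and Retn (9.77) were called higher on day 4. Plin4 was not called on that day, and Lep had too few counts to be tested. For 8 immune markers the sum was 2.10 to 12.2 CPM in CTRL and 20.1 to 36.7 CPM in EXP on day 4, and for 8 keratinocyte markers it was at most 46.4 CPM in any group. On day 1 the immune markers were at 4.21 to 12.7 CPM in CTRL and 14.1 to 29.5 CPM in EXP, with Ptprc at 3 counts or fewer in every library of that day and 5 of the 8 at or under that floor in all CTRL libraries. The 8 tendon and cartilage markers, cells that also express Fmod, Prelp, Aspn and Omd strongly, summed to 192.9 to 318.2 CPM in CTRL and 76.95 to 300.1 CPM in EXP on day 1. They summed to 121.2 to 188.6 and 42.2 to 152.5 CPM on day 2, and to 195 to 271.8 and 48.0 to 252.6 CPM on day 4. Mkx was called lower on days 1 and 4 (-1.69 and -1.79), and Sox9 higher on day 4 (2.36). Tnmd, Acan and Col2a1 were called on no day, and Scx, Chad and Comp had too few counts to be tested. The 8 fibroblast markers, dominated by collagen genes, summed to 121100 to 174400 CPM in CTRL and 62550 to 103900 CPM in EXP on day 1, to 212800 to 266400 and 37850 to 102400 CPM on day 2, and to 150900 to 224200 and 33810 to 168300 CPM on day 4. These markers went different ways. Pdgfra was called higher and Col1a1 and Fbln1 lower on each day, and Cd34 and Col1a2 lower on days 1 and 2. Pdgfrb, Thy1 and Dpt were called on no day. On day 2, when Dcn was called, the endothelial sum was 0.498 to 0.783 CPM in CTRL and 2.08 to 7.39 CPM in EXP, and the immune sum 6.42 to 11.3 and 15.6 to 32.6 CPM. The 5 bone markers summed to 6.37 to 17.6 CPM in CTRL and 119.5 to 259.7 CPM in EXP on day 2, and to 13.3 to 22.9 and 143.4 to 372.7 CPM on day 4. Of these, Alpl (3.76 and 1.79) and Spp1 (3.66 and 4.30) were called higher on days 2 and 4. Sp7 was not called (1.06 and -1.86), and Bglap and Ibsp had too few counts to be tested. Over all libraries the summed level was at most 115.1 CPM for 7 pericyte and smooth muscle markers, 37.0 for 7 melanocyte and mast cell markers, 15.6 for 5 Schwann cell markers and 4.48 CPM for 5 skeletal muscle markers. The part of these cells or of fibroblast makeup in the results was not tested.

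Within the library split, 3 CTRL and 2 EXP libraries of day 1 were on the high side. There Aspn and Omd were called lower, while Bgn (-0.66, adjusted p 0.0656), Ogn (-0.70, adjusted p 0.419) and Prelp (0.70, adjusted p 0.0918) did not pass. The low side had only 1 CTRL library from day 1, too few to measure a spread in that group. The log2 fold changes there were -0.84 for Bgn, -3.27 for Ogn, -2.52 for Aspn, 1.04 for Prelp and -3.97 for Omd. On day 4 the low side held 2 CTRL and 3 EXP libraries, and Dcn and Lum were called lower there too. These 2 CTRL libraries had the higher levels of their group, with Dcn at 22920 and 27080 CPM against 15880 and 17290 on the high side. For Lum the values were 10140 and 11640 against 8039 and 8262 CPM. This repeat is therefore not independent of which CTRL libraries were kept. These subsets were chosen after seeing the data.

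Over the 22 libraries with group means removed, the 36 pairs of the 9 genes had a median Pearson correlation of 0.28 in log2 CPM, between -0.475 (Dcn with Prelp) and 0.878 (Aspn with Omd). Next to the last pair stood Ogn with Omd (0.865), Dcn with Lum (0.856), Lum with Podn (0.786) and Aspn with Podn (0.745). Bgn reached no more than 0.108 with any of the others. These correlations are descriptions of libraries that share their scaling and RNA source, and the pairs are not independent of each other.

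**Figure D4:**
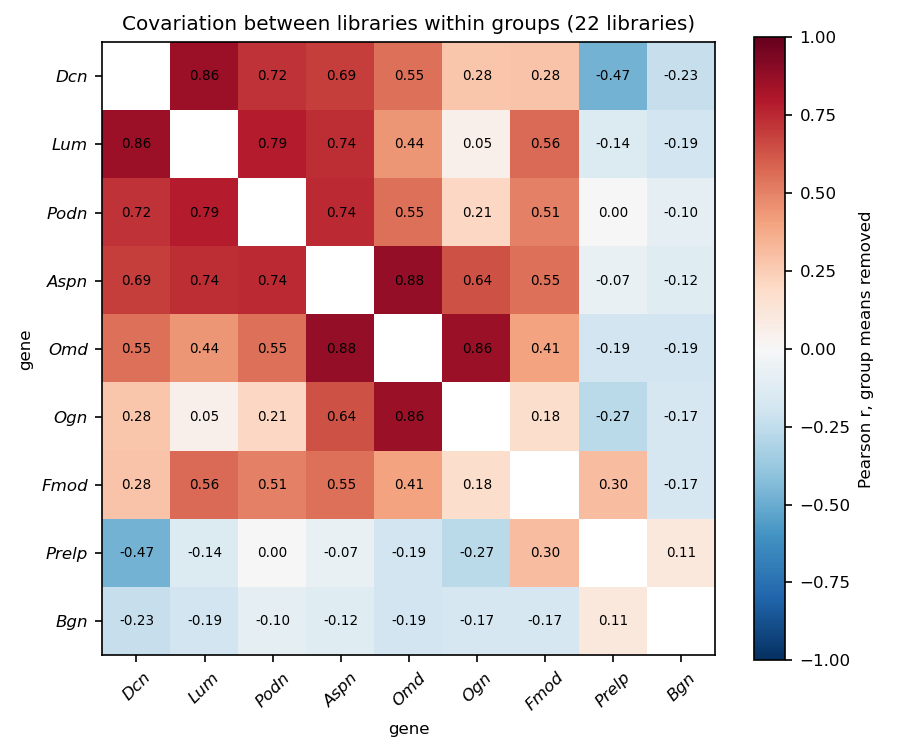
Pearson correlation between each pair of the 9 genes in log2 CPM over 22 libraries after removal of group means, on a scale from blue (-1) to red (1). A block of Dcn, Lum, Podn and Aspn and a block of Aspn, Omd and Ogn stand out in red, and the Bgn row is pale.

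The tested genes outside the 9 that were most like each of them over the 22 libraries, group differences included, were Arl13b (Pearson r 0.934) and Ndel1 (0.923) for Dcn, Tmem150c (0.940) and Qpct (0.934) for Lum, and Kif26b (0.857) and Serhl (0.824) for Bgn. For Aspn they were Cldn10 (0.954) and Colq (0.950), for Omd Ctso (0.919) and Mfap2 (0.917), and for Ogn Adamts12 (0.886) and Ebf2 (0.880). For Podn they were Mmp2 (0.912) and Qpct (0.911), for Prelp Nsfl1c (0.894) and Atp13a1 (0.865), and for Fmod Pisd-ps1 (0.906) and Igfals (0.893). Qpct was named for both Lum and Podn. Each was picked as the highest among all tested genes and is given as a description only.

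Aspn, Omd and Ogn, which fell on day 1, are neighbours on chromosome 13. In RefSeq the protein-coding genes there, ordered by their lowest coordinate, are Cenpp, Ecm2, Aspn, Omd, Ogn and Nol8. Ecm2 is itself a small leucine-rich repeat gene. Its day 1 level was 154.7 ± 24.6 CPM over the 4 CTRL and 56.7 ± 14.3 CPM over the 5 EXP libraries, and it was called lower on all 3 days (-1.45, -2.17 and -2.23, adjusted p 0.0105, 0.00840 and 0.00436). The pattern along the cluster differed by day. On day 1 the differences were -1.45, -1.72, -2.86 and -1.71 from Ecm2 to Ogn, on day 2 -2.17, -1.04, -0.43 and 0.28, and on day 4 -2.23, -1.25, -0.55 and 0.30. Only Ecm2 passed on days 2 and 4, and its day 4 call was lost in a fit of the day 4 libraries alone (adjusted p 0.0636). Nol8, on the far side of Ogn, was higher in EXP on each day (0.73, 1.29 and 1.07, adjusted p 0.0228, 0.00599 and 0.00763). The day 1 call of Nol8 was lost without CTRL library 1 or 4 (up to 0.0806). Cenpp, first in that order, is not outside the cluster, since its exons overlap those of Aspn by 7 bases on the opposite strand. It was at -2.47, 2.14 and 1.70 and was not called (adjusted p 0.0506, 0.208 and 0.208). Nol8 and Cenpp were chosen for their place after their values were seen.

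**Figure D5:**
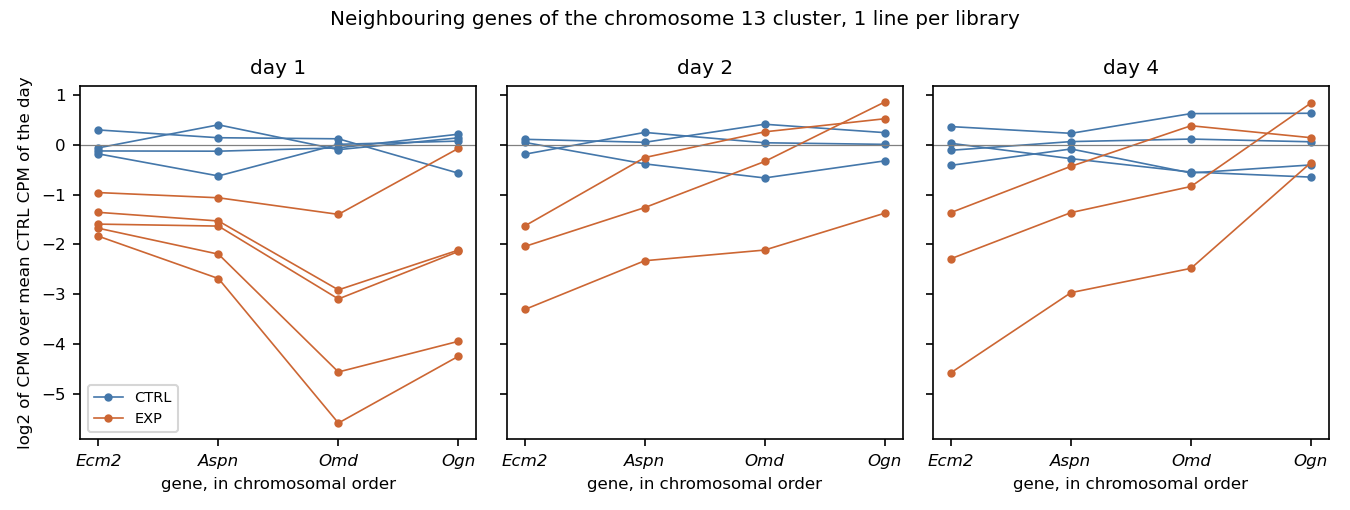
Log2 ratio of the CPM of each library to the mean CTRL CPM of the same day for Ecm2, Aspn, Omd and Ogn in chromosomal order, 1 line per library (CTRL blue, EXP orange). On day 1 each EXP line is lowest at Omd, and on days 2 and 4 each EXP line is lowest at Ecm2 and higher at Ogn.

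The promoters of this trio are printed to show the sequence upstream of genes that fell together on day 1, beside those of Prelp, which rose, and Bgn, whose EXP effect differed by day. They are the 250 bases before the gene start, from RefSeq on GRCm38.p6, which held an entry for 7 of the 9 genes, and Dcn and Lum were not among them. Capitals mark matches, on either strand, to the TATA motif spelled TATAAA, the CCAAT motif spelled by its name, the GC motif spelled GGGCGG, the AP-1 motif spelled TGANTCA, the SMAD motif spelled CAGAC, the TEAD motif spelled GGAATG and the C/EBP motif spelled TTGCNNAA. Aspn lies at chr13:49544193-49544442 (plus strand), Omd at chr13:49582212-49582461 (plus), Ogn at chr13:49607765-49608014 (plus), Prelp at chr1:133921402-133921651 (minus) and Bgn at chrX:73483351-73483600 (plus).
Aspn: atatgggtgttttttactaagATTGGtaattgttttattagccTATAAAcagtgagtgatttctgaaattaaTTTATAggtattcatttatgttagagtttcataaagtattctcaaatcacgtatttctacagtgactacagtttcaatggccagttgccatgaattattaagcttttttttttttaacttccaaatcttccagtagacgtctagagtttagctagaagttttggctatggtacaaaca
Omd: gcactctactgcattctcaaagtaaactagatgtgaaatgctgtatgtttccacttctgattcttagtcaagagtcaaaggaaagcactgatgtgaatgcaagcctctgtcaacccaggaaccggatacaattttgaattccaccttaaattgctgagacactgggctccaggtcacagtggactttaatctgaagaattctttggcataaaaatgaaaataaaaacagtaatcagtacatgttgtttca
Ogn: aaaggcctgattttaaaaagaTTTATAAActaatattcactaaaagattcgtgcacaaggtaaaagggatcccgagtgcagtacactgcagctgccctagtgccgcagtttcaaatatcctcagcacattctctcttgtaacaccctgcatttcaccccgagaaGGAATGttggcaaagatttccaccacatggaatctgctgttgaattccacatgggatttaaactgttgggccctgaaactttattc
Prelp: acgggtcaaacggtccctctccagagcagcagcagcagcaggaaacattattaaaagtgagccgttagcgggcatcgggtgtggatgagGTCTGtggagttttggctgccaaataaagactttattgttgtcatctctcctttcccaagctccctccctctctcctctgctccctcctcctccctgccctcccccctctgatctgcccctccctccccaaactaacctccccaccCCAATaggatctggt
Bgn: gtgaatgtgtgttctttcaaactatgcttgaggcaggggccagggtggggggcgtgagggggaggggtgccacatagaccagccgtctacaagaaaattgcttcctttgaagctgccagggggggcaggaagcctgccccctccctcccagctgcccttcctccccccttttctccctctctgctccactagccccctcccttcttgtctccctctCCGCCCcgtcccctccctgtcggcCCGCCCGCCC

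The promoters of the trio were poor in G and C, lowest of the 5 for Aspn, at 38.4% for Omd and 42.0% for Ogn, against a median of 52.4% over 32851 promoters, 55.6% for Prelp and 64.4% for Bgn. No motif was shared by the 3. Aspn held 2 TATA matches and 1 CCAAT match, Ogn 2 overlapping TATA matches and a TEAD match at bases -86 to -81 from the start, and Omd none of the 7. Bgn held 3 GC boxes, of which the last 2 overlap, and Prelp a CCAAT match at bases -15 to -11 and a SMAD match. TATAAA occurred in 12.4% of all promoters, CCAAT in 33.8%, GGGCGG in 32.7%, TGANTCA in 6.75%, CAGAC in 42.2%, GGAATG in 12.6%, and TTGCNNAA in 9.56%. The trio thus had no TGANTCA or CAGAC within these windows, which says only that these letters are not there.

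Of 9 further small leucine-rich repeat genes, 5 could be tested. On day 1, 1 was higher and 3 were lower in EXP, on day 2, 1 was lower, and on day 4, 2 were lower. For this list and those that follow, the shares of all tested genes called higher and lower were 13.9% and 14.7% on day 1, 7.72% and 5.71% on day 2, and 12.8% and 9.66% on day 4. Keratocan (Kera), the cornea proteoglycan beside Lum, had a day 1 level of 18.2 ± 9.67 CPM over the 4 CTRL and 3.66 ± 1.92 CPM over the 5 EXP libraries (-2.32, adjusted p 0.0226). On day 4 it was at 21.6 to 78.6 CPM in CTRL and at 0.0805, 4.93 and 10.85 CPM in EXP (-3.18, adjusted p 0.0185), the lowest value being 3 counts. Tsukushi (Tsku), a secreted repeat protein that acts on Wnt and TGF-β signals, was the one that rose, with 18.4 ± 1.86 CPM over the 4 CTRL and 48.3 ± 11.9 CPM over the 5 EXP libraries of day 1 (1.39, adjusted p 0.000478). Chadl fell on day 1 (-1.03, adjusted p 0.0276), though 19.5% of its exons overlap L3mbtl2. Epyc, with at most 69 counts in a library, passed on no day. Ecm2 was not called on day 2 without EXP library 1 (adjusted p 0.0572), Kera not on day 1 without CTRL library 3 (0.0707) or day 4 without EXP library 2 (0.0751), and Chadl not without day 1 CTRL library 2, 3 or 4 or EXP library 1 or 4 (up to 0.0709).

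The enzymes that put chains on these core proteins were next. Of 26 tested genes of chain linkage, chondroitin and dermatan sulfate assembly and sulfate supply, 2 were higher and 9 lower on day 1, 3 higher and 4 lower on day 2, and 2 higher and 7 lower on day 4. Their median log2 fold change was -0.36, -0.19 and -0.34, against 0.02, 0.02 and 0.03 over all tested genes. Chst12, a chondroitin 4-sulfotransferase, fell on all 3 days (-1.92, -1.57 and -0.99, adjusted p 2.66e-06, 0.000268 and 0.00386), as did B3gat3, which adds the last sugar of the linkage region (-0.66, -0.87 and -0.65). Chst14, the dermatan 4-sulfotransferase, fell on day 1 (-1.21, adjusted p 0.000238) and was at -0.06 and -0.22 later. Csgalnact1, which starts chondroitin chains, rose on day 2 (3.91, SE 0.49, adjusted p 8.95e-05) and day 4 (3.69, SE 0.43, adjusted p 8.78e-05), from 5.80 to 86.9 CPM and from 7.39 to 95.6 CPM in group means. The day 4 call of B3gat3 was lost without EXP library 1 (adjusted p 0.0686).

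Some class II members carry keratan sulfate or sulfated tyrosines. Of 8 tested genes for these steps, 4 were lower on day 1 and 3 on day 2, with none higher, and on day 4, 4 were lower and 1 was higher. Both tyrosylprotein sulfotransferases fell on each day, Tpst1 by log2 fold changes of -1.14, -1.37 and -1.42 (adjusted p 0.00196, 0.00641 and 0.00305) and Tpst2 of -0.94, -1.02 and -0.53 (adjusted p 0.000134, 0.00133 and 0.0323). Fut8, the core fucosyltransferase, fell on day 1 (-0.68, adjusted p 0.00544) and day 4 (-0.61, adjusted p 0.0337). Chst1, a keratan sulfate sulfotransferase, was the one that rose, on day 4 (3.92, SE 0.92, adjusted p 0.00614). The day 4 call of Tpst2 was lost without CTRL library 1 or 3 or EXP library 1 or 2 (adjusted p up to 0.134), and that of Fut8 without CTRL library 2 or 3 or EXP library 1 or 2 (up to 0.151).

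Of 10 fibrillar and associated collagens, 8 were lower and none higher on day 1, 5 were lower and 2 higher on day 2, and 1 was lower and 2 were higher on day 4. Col5a1 (-1.52, -1.41 and -0.08), Col5a2 (-1.02, -0.57 and -0.20) and Col3a1 (-1.35, -1.48 and -0.60) fell on days 1 and 2 and did not pass on day 4 (adjusted p 0.832, 0.381 and 0.207). The gene lower on day 4 was Col1a1, a chain of collagen I, named after its values were seen, which was called lower on all 3 days (-0.99, -1.85 and -1.13, adjusted p 0.0319, 0.00693 and 0.0450). Its partner chain Col1a2 was at -1.06 on day 4 (adjusted p 0.0634). The Col1a1 call was lost on day 1 without CTRL library 1, 2 or 4 or EXP library 1, 3 or 4 (adjusted p up to 0.0714), on day 2 without EXP library 1 (0.0511), and on day 4 without CTRL library 1, 3 or 4 or EXP library 1 or 2 (up to 0.201). Col12a1, a fibril-associated collagen, rose on day 2 (5.50, SE 0.82, adjusted p 0.000458) and day 4 (5.26, SE 0.72, adjusted p 0.000244). The day 2 call of Col3a1 was lost without EXP library 1 (adjusted p 0.0734), and that of Col5a2 without CTRL library 1 or 3 or EXP library 1 or 3 (up to 0.160).

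Of 18 tested growth factors and receptors known to bind these proteoglycans, 4 were higher and 3 lower on day 1, 4 and 2 on day 2, and 3 and 5 on day 4. Tgfb3 fell on day 1 (-1.26, adjusted p 2.55e-05), rose on day 2 (0.81, adjusted p 0.0125) and fell on day 4 (-0.78, adjusted p 0.00816). Bmp4, another ligand of the family, fell on all 3 days (-2.17, -1.75 and -2.10, adjusted p 0.00160, 0.0432 and 0.0117). Igf1, whose receptor binds decorin, fell on day 1 (-1.38, adjusted p 0.00472) and was at 1.11 and 0.28 later. The day 2 call of Tgfb3 was lost without CTRL library 1 or 2 or EXP library 1 (adjusted p up to 0.140), that of Bmp4 without CTRL library 1, 2 or 3 or EXP library 1 or 3 (up to 0.200), and the day 4 call of Bmp4 without EXP library 2 (0.0631).

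Of 14 proteases known to process or cut these core proteins, 4 were higher and 3 lower on day 1, 5 higher and none lower on day 2, and 5 higher and 3 lower on day 4. Mmp13, a collagenase that also cleaves members such as biglycan and fibromodulin, rose from 0.846 to 30.6 CPM on day 1, 0.813 to 158.1 CPM on day 2 and 1.76 to 180.7 CPM on day 4 in group means (5.16, 7.58 and 6.67, adjusted p 0.000218, 0.000325 and 0.000242). Mmp3, or stromelysin, which cleaves decorin, rose on all 3 days (1.90, 1.57 and 1.20, adjusted p 9.53e-05, 0.00519 and 0.0111). Adamts5 rose on each day too (0.94, 1.06 and 2.02, adjusted p 0.0174, 0.0444 and 0.000466). Mmp9 was at 0.254 to 1.24 CPM in CTRL and at 3 counts or fewer in every EXP library on day 1 (adjusted p 0.0136), and rose on day 4 (5.37, adjusted p 0.00426). Adamts5 was lost on day 1 without CTRL library 2 or 4 or EXP library 3 (adjusted p up to 0.0624) and on day 2 without CTRL library 1 or 3 or any EXP library (up to 0.195), and Mmp3 on day 4 without EXP library 3 (0.0516). Both Mmp9 calls were lost with limma voom (adjusted p 0.143 on day 1 and 0.0844 on day 4). These are mRNA levels, and neither the proteoglycans nor their fragments were measured as proteins.

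Other proteoglycan core proteins went both ways. Of 21 tested, 3 were higher and 8 lower on day 1, 2 and 2 on day 2, and 4 and 4 on day 4. Prg4, or lubricin, rose on all 3 days (2.36, 5.51 and 5.11, adjusted p 0.00171, 9.71e-05 and 9.93e-05), and Vcan, the large chondroitin sulfate proteoglycan versican, rose on days 2 and 4 (0.77 and 1.20, adjusted p 0.0324 and 0.00118). Srgn, or serglycin, rose on days 1 and 4 (3.35 and 2.96, adjusted p 0.000542 and 0.00383). Spock2 fell on all 3 days (-1.29, -2.39 and -1.18, adjusted p 0.00431, 0.000848 and 0.0269). The day 2 call of Vcan was lost without CTRL library 1 or 2 or any EXP library (adjusted p up to 0.172), and the day 4 call of Spock2 without EXP library 1 or 2 (up to 0.150).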

How the data were processed

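RNA-seq libraries of sorted mouse skin fibroblasts were compared between EXP and CTRL on 3 days. The deposited file holds the authors' raw read counts per Ensembl gene for 22 libraries, as whole numbers. Trimmomatic and the mm39 build are named per the submitters' processing notes. The aligner, the counting program and its strand setting are not given in the sources used here. Gene symbols and exon lengths came from a GENCODE annotation of GRCm38, in which 52081 of 55414 identifiers had a symbol and all 9 members matched. Because the builds differ, no gene coordinates are given, and promoter windows carry RefSeq's own GRCm38.p6 coordinates.

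Counts were tested in R 4.3.3 with edgeR 4.0.16 (filterByExpr with a minimum count of 10, TMM scaling, robust quasi-likelihood fit of 6 group means over all 22 libraries, 16 residual degrees of freedom). P-values were adjusted over 17554 genes within each contrast by Benjamini-Hochberg, with a threshold of 0.05. CPM were computed on TMM-scaled totals, log2 CPM with a prior count of 2, and exon-length CPM per kilobase. Differences between days were tested as interaction contrasts, jointly and in pairs. Libraries of a group differed by more than counting noise (chi-square per degree of freedom 29.4 to 451.3), so none was merged. The procedure was tested on simulated data for day 1 with 17554 genes, of which 17099 were tested. There 39% of 100 genes changed 2-fold and 81% of 100 changed 4-fold were recovered, with 5 false calls among 125. Only these genes changed, up or down at random, and the noise was drawn independently for each gene and library. The real day 1 contrast called 5017 genes, so these rates need not hold for it.

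The 9 members and the gene lists were chosen with earlier results of these data known. From each list at most 4 genes were named, those called on at least 1 day with the smallest p-value, together with all tested genes of the list of further small leucine-rich repeat genes, the 2 genes most correlated with each member, and the sorting markers. Alternatives were DESeq2 1.42.0, limma 3.58.1 voom with quality weights, other scalings, no filter, fits of the compared libraries alone, a replicate block, the library split as a covariate, a fold threshold of 0.5 on the log2 scale, and leaving out each library. Fits within each side of the library split were added after seeing the data.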

Additional observations from a re-analysis of the deposited data

Results flagged for a closer look

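The 30 sets of values were each of the 9 genes, and their joint share of library counts, in each group of 4 or 5 libraries. Of these sets, 4 held a library far from the others of its group by Dixon's test, where chance gives 1.5. Dcn in day 1 CTRL library 1 was at 10110 CPM and the other 3 at 12480 to 12710 CPM. Ogn in day 1 EXP library 2 was at 106.8 CPM and the other 4 at 5.89 to 25.9 CPM. Podn in day 1 EXP library 4 was at 189.9 CPM and the other 4 at 263.3 to 282 CPM. Podn in day 4 CTRL library 2 was at 685.7 CPM and the other 3 at 479 to 498.8 CPM.

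The EXP effect differed between days for Bgn in the joint edgeR test (adjusted p 0.0316) and between days 4 and 1 (adjusted p 0.0203). For Dcn it differed between days 4 and 1 (edgeR adjusted p 0.0395), with the opposite sign. With a replicate block none of these differences passed (edgeR adjusted p 0.0850 to 0.126). The EXP effect on Bgn was -0.58 on day 1 and 0.43 on day 4, and on Dcn -0.20 and -1.13. What lies behind these differences was not tested.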

How the results depend on the processing

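Of 54 results on single members, 21 kept their direction and side of the threshold in every alternative run. Of 1215 values under alternatives, 1103 were kept, 71 were no longer past the threshold, 32 were newly past it and 9 changed sign. Of 72 calls on named genes outside the 9, 50 were kept whichever library was left out. Under every alternative examined for them other than the sides of the library split, 43 of the 72 were kept, and none changed sign. The fold threshold was not among these alternatives, so whether these calls hold under it was not tested. With library totals the calls of B3gat3 on days 2 and 4, Col5a2 and Bmp4 on day 2, and Fut8, Tpst2 and Tgfb3 on day 4 were lost. In a fit of the day 4 libraries alone, the day 4 calls of Ecm2, Kera, B3gat3, Fut8, Tpst2 and Col1a1 were lost. Those of Bmp4, Pdgfra, Mmp3, Spock2 and Nol8 were lost there too (adjusted p 0.0636 for Ecm2 up to 0.176 for Col1a1). The causes of the changes were not tested.

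With a fold threshold of 0.5, 2038, 885 and 1470 genes were called on days 1, 2 and 4, with 0 members higher and 2 lower on day 1 and 0 lower on day 2. With DESeq2, 2606 genes and 2 members (Dcn and Bgn) differed between days and 519 genes and 1 member (Dcn) changed within CTRL. With voom, day 2 gave 4567 genes, 1 member higher and 4 lower, 5 members (Bgn, Dcn, Lum, Ogn and Omd) differed between days, and 603 genes and 1 member (Dcn) changed within CTRL. With library totals, day 2 gave 4631 genes, 2 members higher and 0 lower, day 4 gave 1 member higher, 163 genes changed within CTRL, and the summed level was 19490 CPM in day 1 EXP and 23810 CPM in day 2 CTRL. The share of calls that were higher was then 66.2%, 90.5% and 80.8%, against 48.6%, 57.5% and 57.0%. Without a filter 1 member changed within EXP. In fits of the compared libraries alone, day 2 had 1 member higher and 2 lower, day 4 had 1128 genes and 0 members lower, 1267 genes changed within EXP, and 326 genes and 2 members within CTRL. With the split as a covariate 29 genes changed within CTRL.

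EXP and CTRL libraries of a day with the same replicate number correlated weakly in their deviations from the group means (-0.066 to 0.164). Libraries with different numbers were not compared in this way, so whether the numbers pair the libraries was not settled. With a replicate block, day 1 had 0 members higher and 2 lower, day 2 had 0 lower, 401 genes and 0 members differed between days, 1211 genes changed within EXP and 21 within CTRL.

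On the low side of the split, chosen after seeing the data, day 1 (1 CTRL library, assumed to vary like the other groups) gave 697 genes, 0 members higher and 0 lower, day 2 gave 1 member higher and 0 lower, day 4 gave 1084 genes, 51 genes and 0 members differed between days, 1392 genes changed within EXP and 7 within CTRL. On the high side day 1 gave 2257 genes, 0 members higher and 2 lower. With totals less the 10 genes with most counts the members' share was 2.98%, 2.40%, 3.70%, 2.71%, 4.54% and 2.34% in day 1 CTRL, day 1 EXP, day 2 CTRL, day 2 EXP, day 4 CTRL and day 4 EXP.

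Leaving out 1 library, day 1 gave 0 to 1 members higher and 2 to 4 lower, day 2 gave 891 to 2177 genes and 0 to 2 members lower, and day 4 gave 1633 to 5011 genes and 2 to 4 members lower. Between days 898 to 2572 genes and 0 to 3 members differed, within EXP 1367 to 3415 genes and 1 to 4 members, and within CTRL 5 to 92 genes. Ogn ran from -0.14 (without EXP library 3) to 0.71 on day 2 and from -0.098 (without EXP library 2) to 0.59 on day 4. Omd on day 2 was at 0.0011 with library totals. Prelp on day 4 was at -0.19, -0.18 and -0.059 without CTRL library 1, CTRL library 2 and EXP library 2, up to 0.34 without CTRL library 4, at -0.0040 with DESeq2 and its size factors, and at -0.019 among day 4 libraries alone.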
